A study of Mus musculus with 6 samples.

Results

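The miR-15/16 family is a group of microRNAs (miRNAs), short RNAs that pair with messenger RNAs and lower the output of the protein they encode. Its 7 members on the array were mmu-miR-15a, mmu-miR-15b, mmu-miR-16, mmu-miR-195, mmu-miR-497, mmu-miR-322 and mmu-miR-503 (the prefix for mouse is dropped from here on), out of 611 mouse miRNA entries. They were taken by their names in the array design, and star forms (the opposite strand of a precursor) were left out of the 7. The arrays came from 3 samples of MCT cells exposed to TGFβ, transforming growth factor beta, for 72 hours at 3 ng/ml, and 3 samples of control MCT cells. MCT is a mouse renal tubular cell line from the SJL H-2S background. Cells of the TGFβ group had been moved to low-serum medium on the day before the cytokine was added, and the time at which control cells were collected is not stated. Nothing states that replicates were grown as separate cultures, and the p-values cover the variation among these 6 samples, be it technical or not. The series asked how TGFβ alters miRNAs in these cells.

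A miRNA finds its targets mainly through its seed, the bases next to its 5′ end, so members with 1 seed are expected to share many targets. The miR-15/16 family is known for repressing cyclins and other cell-cycle regulators (cyclin D1, cyclin E1) and the survival factor Bcl2. TGFβ is a cytokine that slows the division of many epithelial cells and drives fibrosis in the kidney. These roles are background and were not measured here.

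The mature sequences, taken from RefSeq (GRCm38.p6), are shown because the shared seed is what makes these miRNAs a family and because the array has to tell apart members that differ in a few bases. The capitals mark the seed, bases 2 to 8 from the 5′ end.
miR-15a: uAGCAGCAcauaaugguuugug
miR-15b: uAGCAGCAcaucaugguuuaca
miR-16: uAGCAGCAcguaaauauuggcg
miR-195: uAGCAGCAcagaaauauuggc
miR-497: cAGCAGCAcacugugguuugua
miR-322: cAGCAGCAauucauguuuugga
miR-503: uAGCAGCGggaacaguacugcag

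All 7 of the members matched a RefSeq entry, and 6 of the 7 had the same seed. Set against miR-16 and counted from the 5′ end, miR-503 carried A8G in the last base of the seed. miR-497 and miR-322 carried U1C, which lies outside the seed. Over their whole length miR-16 and miR-195 were identical at 19 of 21 aligned bases and miR-15a and miR-15b at 18 of 22, while miR-503 matched the other members at 10 to 12 bases. After the seed the counts were 11 of 13 for miR-16 and miR-195, 10 of 14 for miR-15a with either miR-15b or miR-497, and 4 to 5 for miR-503 with any other member. The genes lie in 4 clusters. Mir15a and Mir16-1 lie within Dleu2 on chromosome 14, and Mir15b and Mir16-2 within Smc4 on chromosome 3. Mir195a and Mir497 are neighbours on chromosome 11. Mir322 and Mir503 lie within the long non-coding RNA gene C430049B03Rik on chromosome X. miR-16 can therefore come from 2 genes, which a probe for the mature miRNA cannot tell apart.

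The family split by detection. miR-15a, miR-15b, miR-16 and miR-322 were well above background on all 6 arrays, while miR-195, miR-497 and miR-503 were so on 0 of 6. Detection on all 6 arrays was reached by 70 of the 611 mouse entries (11.5%), against 4 of the 7 members. Each member was read by 2 probes with 10 spots each, so 120 spots per member over the 6 arrays. All 120 spots were well above background for miR-15a, miR-15b and miR-322, and 118 of 120 for miR-16, whose 2 dim spots were on control 3. The counts were 0 of 120 for miR-195, 1 of 120 for miR-497 and 9 of 120 for miR-503. miR-16 and miR-195, the pair closest in sequence, thus stood on opposite sides of the detection limit.

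The 2 transcription units of miR-15 and miR-16 were therefore represented by signal from 3 mature miRNAs, and the miR-195 and miR-497 cluster by none. miR-195 is known in the mouse heart for its part in the arrest of the cell cycle after birth. Its scaled signal was 2.22, 1.21 and 5.74 on TGFβ arrays 1 to 3, against 5.65, 4.60 and 4.33 on control arrays 1 to 3. That of miR-497 was 6.86, 6.69 and 8.51 with TGFβ, against 9.49, 8.75 and 9.36 in controls. These are means of 2 probes, of which the brighter reached at most 11.8 units for miR-195 (control 1) and 15.7 for miR-497 (control 3). The dimmest single probe that counted as well above background on an array had 19.4 to 36.4 units. Neither miRNA was detected on any array, so no fold was computed for either.

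The X-chromosome cluster was detected through miR-322 alone. miR-322 (the counterpart of human miR-424) and miR-503 are known from mouse muscle cells for promoting exit from the cell cycle. The scaled signal of miR-503 was 8.38, 5.30 and 6.75 on TGFβ arrays 1 to 3, against 8.06, 5.74 and 5.75 on control arrays 1 to 3. The groups overlapped and no array had miR-503 well above background. Of the 9 spots that were, 6 were on TGFβ arrays and 3 on control arrays. The miR-503 signals are means of 2 probes, 1 of which was negative on every array. The other probe read from 11.6 units (control 2) to 18.6 units (TGFβ 1). Its share of spots well above background was highest on TGFβ 1, at 0.4 against the 0.5 required. The 7 other entries of the cluster on the array (miR-351, miR-450a, miR-450a-2*, miR-450b-5p, miR-450b-3p, miR-542-3p and miR-542-5p) were well above background on 0 arrays. Their summed signal was 11.3 to 18.1 units on TGFβ arrays and 14.0 to 16.8 on control arrays. The opposite arms of the precursors were not detected either. The array carried 5 of them (miR-15a*, miR-15b*, miR-16-1*, miR-322* and miR-503*), and all 5 were below the limit on each of the 6 arrays.

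**Figure D1:**
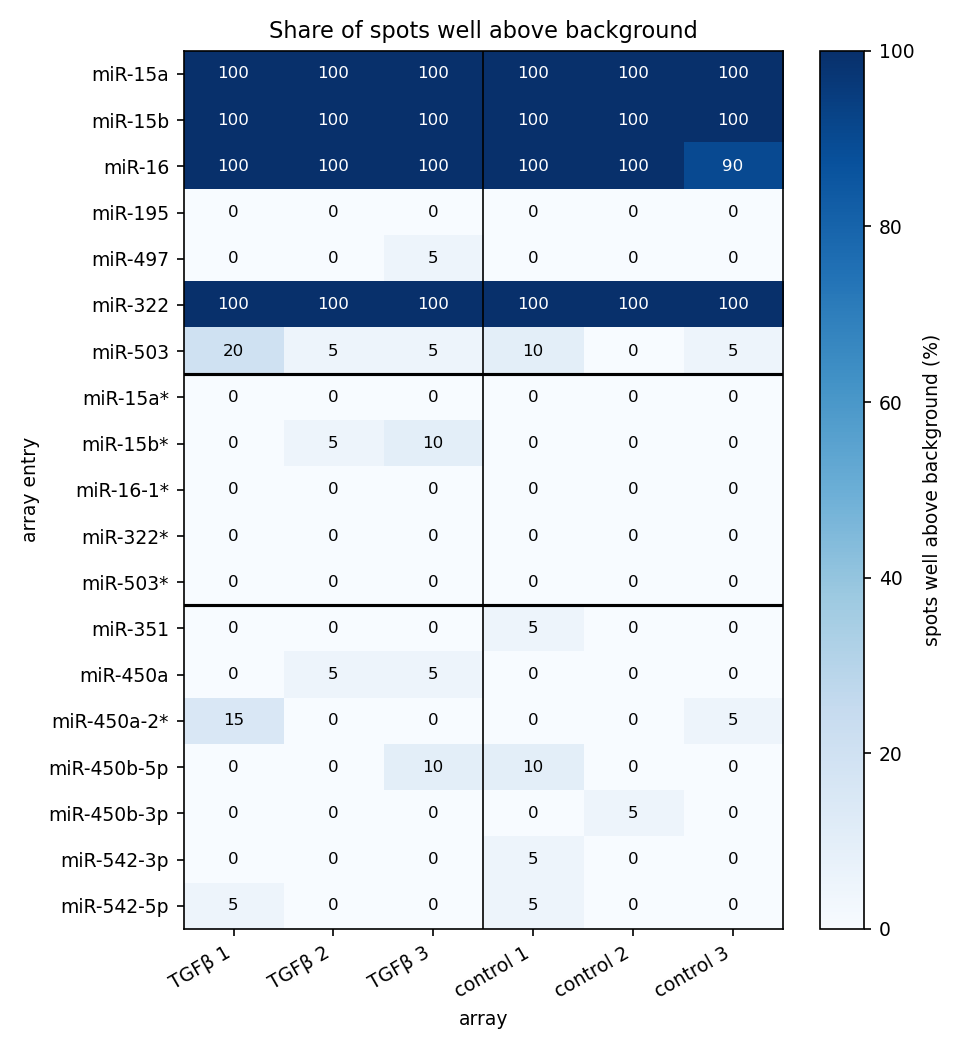
Share of spots (%) well above background for each array entry (rows) on each array (columns, TGFβ left of the line and control right of it). The upper block holds the 7 members, the middle block the opposite arms and the lower block the other miRNAs of the X-chromosome cluster. Only miR-15a, miR-15b, miR-16 and miR-322 have most of their spots above background, and they have it on all 6 arrays.

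Per array, 74 to 103 mouse miRNAs were detected. The 75th percentile of signal, over 105 probes well above background on all 6 arrays, was 365.3, 402.4 and 339.9 units on TGFβ arrays 1 to 3, against 363.7, 268.6 and 249.5 on control arrays 1 to 3. Control 1 stood apart from the other controls. After scaling, its 4 detected members lay closest to TGFβ 3 (median absolute log2 difference 0.08), while they differed from controls 2 and 3 by 0.39 and 0.36. Control 1 also had the lowest labelling spike-in signal (1.82 on the log10 scale, against 2.09 to 2.14 on the other arrays). Spots of a probe varied most on control 1 and TGFβ 2, with a median coefficient of variation of 15.6% and 14.8%, against 6.55% to 7.95% on the other arrays. Both arrays sat in the first column of the slide. Of the cell type markers, 0 of 7 renal epithelial miRNAs (miR-192, miR-194, miR-200a, miR-200b, miR-200c, miR-141 and miR-429) were detected on any array, and of 2 kidney tubule miRNAs, miR-30a was and miR-204 was not. None of the 6 blood, 2 endothelial or 5 fibroblast and smooth muscle markers was well above background on any array.

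With all 6 arrays, signal scaled to the 75th percentile was lower on average in TGFβ-treated than in control cells for each of the 4 detected members, a direction that turned without scaling for miR-15b, miR-16 and miR-322, and with total gene signal for miR-16. The differences came to -24.4% for miR-15a, -18.6% for miR-15b, -14.5% for miR-322 and -5.65% for miR-16, the groups overlapped for each member, and none passed the test. limma called 0 of the 84 tested miRNAs (0.0%), with a smallest adjusted p of 0.391 and 8 miRNAs at an unadjusted p under 0.05. For each detected member, the result with all 6 arrays is given below on the log2 scale of scaled signal, TGFβ minus control. Its p is adjusted over the 84. In other fits p was adjusted over the miRNAs or probes tested in that fit.

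miR-15a, which shares a precursor transcript with miR-16, had scaled signals of 194.8, 163.8 and 215.6 units on TGFβ arrays 1 to 3. It had 202.7, 278.3 and 282.3 units on control arrays 1 to 3. Controls 2 and 3 lay above all TGFβ arrays, and control 1 fell between TGFβ 1 and TGFβ 3. The mean log2 signal was 7.57 ± 0.20 in TGFβ-treated and 7.97 ± 0.27 in control cells (SD, n = 3 each), a difference of -0.40 (SE 0.20, 95% interval -0.89 to 0.08, limma adjusted p = 0.391). This was the 12th lowest of the 84 differences.

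miR-15b is processed from a second transcript together with the other copy of miR-16. Its scaled signals were 738.7, 1035.1 and 863.9 units on TGFβ arrays 1 to 3, against 909.3, 1137.5 and 1185.3 units on control arrays 1 to 3. TGFβ 2 lay above control 1 and below the other 2 controls. The means were 9.77 ± 0.24 and 10.06 ± 0.21 on the log2 scale in TGFβ-treated and control cells (SD, n = 3 each), a difference of -0.30 (SE 0.19, 95% interval -0.77 to 0.17, limma adjusted p = 0.433).

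miR-16, the family member with copies in both transcripts, had 100.3, 98.9 and 83.2 units on TGFβ arrays 1 to 3. The control arrays 1 to 3 had 83.0, 113.4 and 104.4 units. TGFβ 3 and control 1 were level at the bottom of their groups. The difference was -0.08 (SE 0.18, 95% interval -0.52 to 0.35, limma adjusted p = 0.783), between means of 6.55 ± 0.15 in TGFβ-treated and 6.64 ± 0.23 in control cells (SD, n = 3 each).

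miR-322 had 99.0, 88.2 and 115.7 units on TGFβ arrays 1 to 3, against 105.7, 123.6 and 123.8 units on control arrays 1 to 3. TGFβ 3 lay above control 1, and controls 2 and 3 lay above all 3 TGFβ arrays. The means were 6.65 ± 0.20 in TGFβ-treated and 6.88 ± 0.13 in control cells (SD, n = 3 each), a difference of -0.23 (SE 0.17, 95% interval -0.63 to 0.18, limma adjusted p = 0.478).

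The 4 detected members were thus all on the lower side at this scaling, with a median difference of -0.26. Over the 84 tested miRNAs 49 (58.3%) were lower and the median was -0.09. In these bulk samples fewer cells with a miRNA and less of it per cell cannot be told apart. Groups that did not overlap were found for 0 of the 4 members, and for 12 of the 84 miRNAs (14.3%), 7 higher (8.33%) and 5 lower (5.95%). The 95% intervals run from -46.1% to 6.02% for miR-15a and from -30.3% to 27.7% for miR-16. Both intervals include no change. The number of arrays limits the precision.

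**Figure D2:**
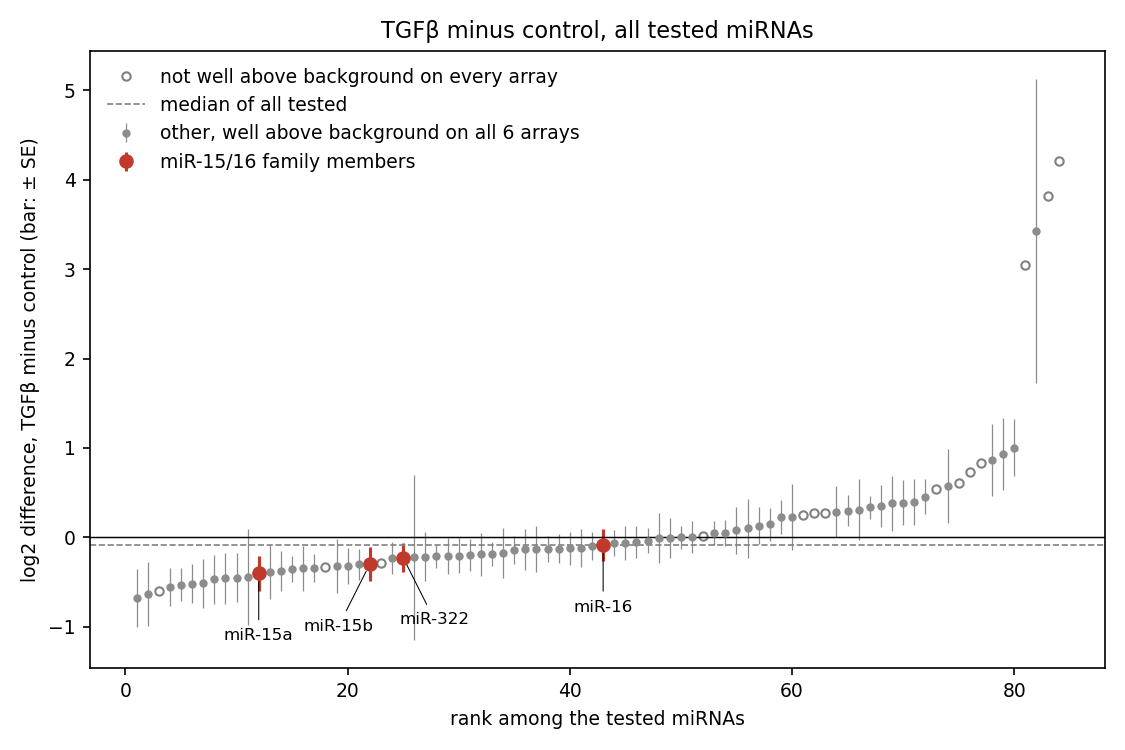
Log2 difference (TGFβ minus control, vertical axis) of the 84 tested miRNAs, ordered by rank (horizontal axis). Red points with ± SE bars are the 4 detected members, filled grey points the other miRNAs well above background on all 6 arrays, and open points (no bar) the 14 that were not on every array, whose differences depend on signal near background. The members lie at ranks 12, 22, 25 and 43, within the bulk of the distribution.

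The direction depended on how the arrays were brought to a common scale. Before any scaling, miR-15a had 217.7, 201.7 and 224.3 units on TGFβ arrays 1 to 3 and 225.6, 228.7 and 215.5 units on control arrays 1 to 3, with overlapping groups. Its highest array was 1.13 times its lowest, the smallest such ratio among the 70 miRNAs detected on all 6 arrays, whose median was 1.66. The 75th percentile itself varied 1.61-fold over the arrays, and after scaling the ratio for miR-15a was 1.72, against a median of 1.70.

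The other 3 members were on average higher in TGFβ-treated cells without scaling. miR-15b had 825.8, 1274.5 and 898.5 units with TGFβ, against 1012.1, 935.0 and 904.9 in controls. miR-16 had 112.2, 121.8 and 86.5 units with TGFβ, against 92.4, 93.2 and 79.7 in controls. The groups overlapped for both, with TGFβ 2 the highest array of each. miR-322 had 110.7, 108.6 and 120.4 units with TGFβ, against 117.6, 101.6 and 94.5 in controls, which overlapped as well. The log2 differences without scaling were -0.06 for miR-15a, 0.05 for miR-15b, 0.26 for miR-16 and 0.12 for miR-322, none of which passed the limma test (adjusted p from 0.512 to 0.943).

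**Figure D3:**
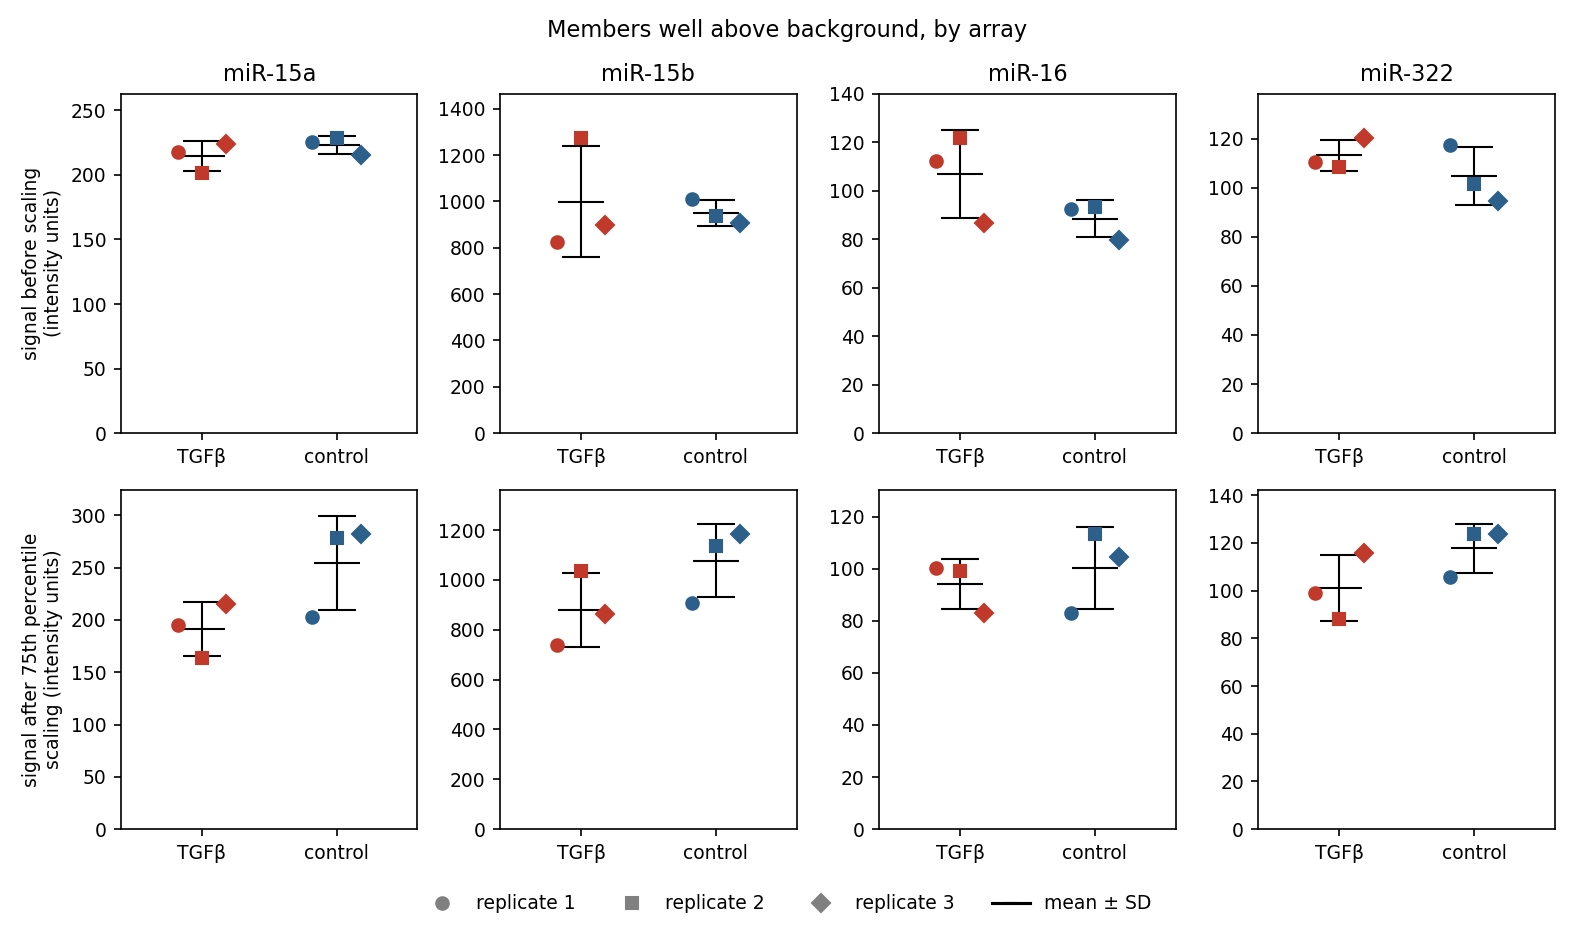
Signal of the 4 detected members in intensity units on each array, before (upper row) and after (lower row) scaling to the 75th percentile, with TGFβ left of control in each panel. Points are arrays, marked by replicate number, and the bars give the mean ± SD (n = 3 each). miR-15a spans 201.7 to 228.7 units before scaling and 163.8 to 282.3 after it, and control 1 is the lowest control for each member after scaling.

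The scaling moved all miRNAs together, so each member was also read against the median of all tested miRNAs. That median was 0.26 without scaling, -0.22 with quantile normalisation and -0.32 when arrays were scaled to the median of the detected miRNAs. Scalings that shift a whole array by 1 factor leave a member's distance to that median fixed by construction, at -0.31 for miR-15a, -0.21 for miR-15b, 0.0059 for miR-16 and -0.14 for miR-322. Quantile normalisation gave -0.23, -0.39, 0.0138 and -0.12 in the same order, and total gene signal gave -0.33, -0.22, -0.0089 and -0.15. The distance of miR-16 was -0.13 without control 1 and -0.22 with arrays weighted by their spread. Ratios of 2 members on the same array are free of scaling. The log2 ratio of miR-15a to miR-16 was 1.02 ± 0.33 in TGFβ-treated and 1.34 ± 0.08 in control cells (SD, n = 3 each), a difference of -0.32 (exact two-sided permutation p = 0.3). For miR-15b to miR-16 the difference was -0.21 (exact permutation p = 0.3), and for miR-15a to miR-322 it was -0.18 (exact permutation p = 0.2). Over the 6 pairs the Benjamini-Hochberg adjusted values ran from 0.6 to 1, and with 3 arrays against 3 the smallest p such a test can give is 0.1.

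The 2 probes of each member moved the same way on average. The differences of the 2 probes were -0.42 and -0.39 for miR-15a, -0.13 and -0.32 for miR-15b, -0.03 and -0.10 for miR-16, and -0.19 and -0.24 for miR-322. In a limma fit of 128 single probes 0 were called (0.0%), and the members' probes had adjusted p from 0.395 to 0.957.

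The members' calls depended on how much control 1 counted in the fit. After scaling, control 1 lay below the mean of controls 2 and 3 for all 4 members. The log2 differences were -0.47 for miR-15a, -0.35 for miR-15b, -0.39 for miR-16 and -0.23 for miR-322. From the mean of the TGFβ arrays it differed by 0.09, 0.06, -0.18 and 0.07 for the same 4 miRNAs. Before scaling, control 1 lay above both other controls for miR-15b and miR-322, and between them for miR-15a and miR-16. Its 75th percentile was then 363.7 units, against 268.6 and 249.5 on controls 2 and 3. After scaling and without control 1, the TGFβ arrays lay below controls 2 and 3 with no overlap for all 4 members. They did so for 36 of the 85 miRNAs then tested (42.4%). Before scaling, miR-322 lay higher with TGFβ without overlap (110.7, 108.6 and 120.4 units, against 101.6 and 94.5 on controls 2 and 3). Without control 1 the unscaled groups overlapped for miR-15a, miR-15b and miR-16. No fit left out control 1 without scaling. In the fit of scaled signal without control 1, 29 of 85 miRNAs were called (34.1%), 19 of them lower with TGFβ (22.4%). Among the members 1 of 4 was called, miR-15a, with a difference of -0.56 (SE 0.16, limma adjusted p = 0.0491). The controls left in that fit, 2 and 3, were the closest pair of arrays, with a median absolute log2 difference of 0.06. With controls 2 and 3 averaged to 1 sample and control 1 kept, limma called 0 miRNAs, 0 had an unadjusted p under 0.05, and the smallest adjusted p was 0.870. Without control 1 the other 3 members did not pass, with -0.41 for miR-15b (limma adjusted p = 0.130), -0.21 for miR-16 (0.298) and -0.30 for miR-322 (0.187).

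Leaving out both arrays of the first slide column (TGFβ 2 and control 1) gave 33 called of 86 (38.4%), 22 of them lower (25.6%). miR-15a fell by 0.45 (limma adjusted p = 0.0399) and miR-15b fell by 0.54 (limma adjusted p = 0.0397) in that fit, each on 2 arrays against 2. After scaling, all 4 members there lay lower with TGFβ without overlap, as did 42 of the 86 miRNAs (48.8%). Before scaling, miR-322 lay higher on these arrays without overlap (110.7 and 120.4 units, against 101.6 and 94.5 in controls). miR-15b lay lower without overlap (825.8 and 898.5 units, against 935.0 and 904.9), and the groups overlapped for miR-15a and miR-16. Weighting the arrays by their own spread gave controls 1 to 3 weights of 0.144, 3.71 and 3.08. The TGFβ arrays had 0.516 to 1.88, and the weights stopped short of convergence. That fit called 45 of 84 (53.6%), 27 of them lower (32.1%). miR-15a fell by 0.48 (limma adjusted p = 0.0154) and miR-15b fell by 0.40 (limma adjusted p = 0.0264) there, while miR-16 (limma adjusted p = 0.0737) and miR-322 (limma adjusted p = 0.151) did not pass. Leaving out any single array other than control 1 gave 0 calls (0.0%). With the replicate number as a block 1 of 84 was called (1.19%) and with the slide row as a block 3 (3.57%), in neither case a member. When the percentile was retaken without control 1, 31 of 85 were called (36.5%), 20 of them lower (23.5%), with miR-15a the 1 member among them.

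Samples with the same replicate number gave 3 contrasts that share no array. TGFβ 1 to 3 minus the control of the same number came to -0.06, -0.76 and -0.39 for miR-15a, to -0.30, -0.14 and -0.46 for miR-15b, and to -0.09, -0.49 and -0.10 for miR-322. After scaling, these 3 members were lower with TGFβ in all 3 pairs, as were 15 of the 84 tested miRNAs (17.9%). For miR-16 the values were 0.27, -0.20 and -0.33. The medians over all tested miRNAs were 0.15, -0.07 and -0.17. With the number as a block the members' limma adjusted p ran from 0.447 to 0.867. Before scaling, miR-15a, miR-15b and miR-322 were not lower in every pair. miR-15a was higher with TGFβ in pair 3 (224.3 against 215.5 units) and miR-15b in pair 2 (1274.5 against 935.0). miR-322 was higher in pairs 2 and 3 (108.6 against 101.6 and 120.4 against 94.5).

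Array position on the slide gave other contrasts. In the first column TGFβ 2 minus control 1 was -0.31 for miR-15a and -0.26 for miR-322, but 0.19 for miR-15b and 0.25 for miR-16, with a median of 0.03 over all tested miRNAs. In the second column TGFβ 3 minus control 2 was -0.37, -0.40, -0.45 and -0.10 for miR-15a, miR-15b, miR-16 and miR-322, with a median of -0.10. In the first row TGFβ 1 minus the mean of the 3 controls was -0.37, -0.53, 0.01 and -0.25 in the same order. The last contrast shares controls 1 and 2 with the other two, so the 3 are not independent. The part that slide position, spot spread and labelling signal have in these differences was not tested.

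**Figure D4:**
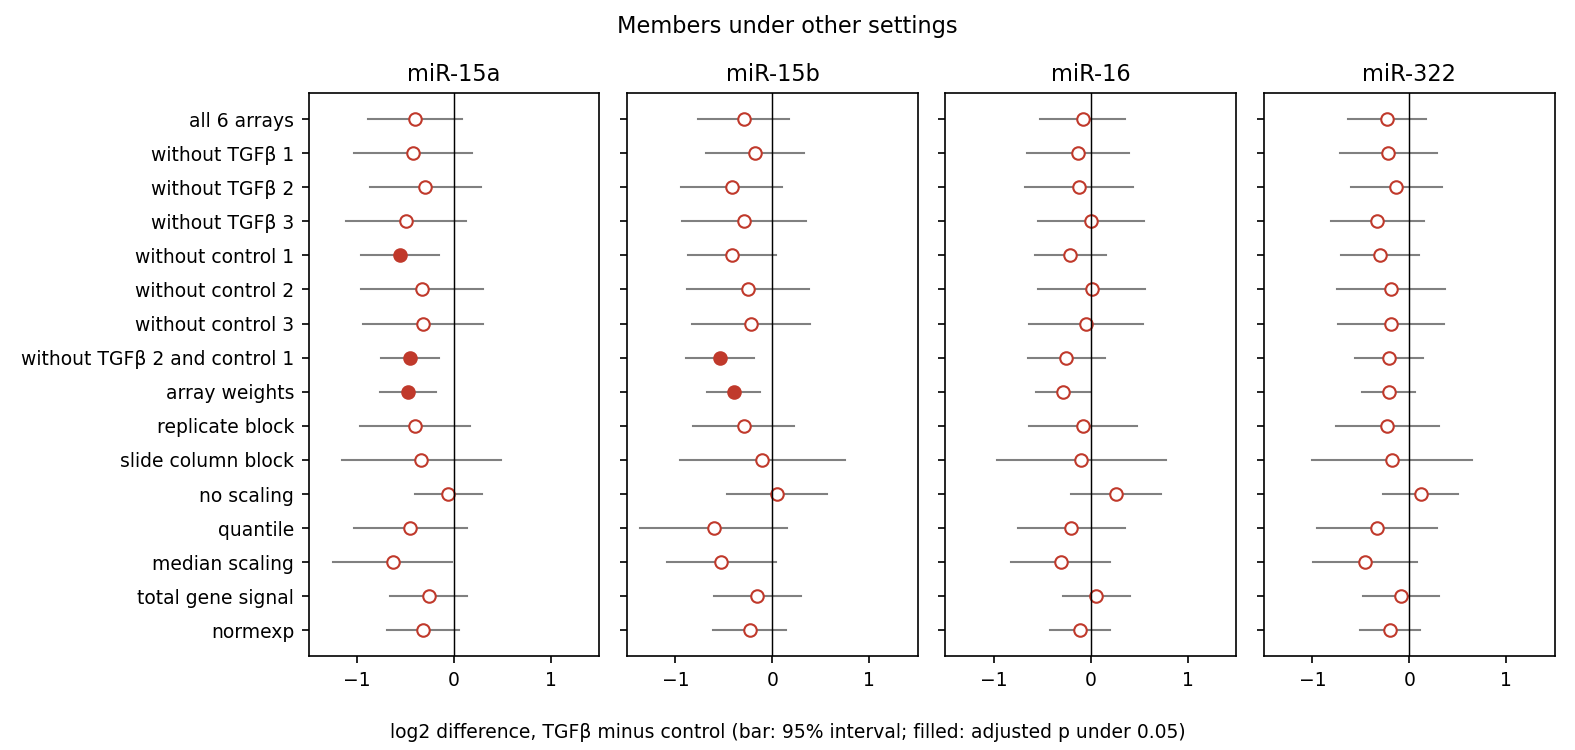
Log2 difference (TGFβ minus control, horizontal axis) of the 4 detected members under the settings named at the left, with 95% intervals from limma. Filled points have an adjusted p under 0.05. miR-15a has filled points in 3 of the settings drawn and miR-15b in 2, all without control 1 or with low weight on it, and the points of miR-15b, miR-16 and miR-322 lie right of 0 without scaling. The array weights stopped short of convergence.

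miR-103 and miR-107, known in the mouse as regulators of insulin sensitivity, are placed in the wider family because their seeds overlap that of miR-16 shifted by 1 base.
miR-103: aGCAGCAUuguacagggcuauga
miR-107: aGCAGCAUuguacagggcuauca
Both were well above background on all 6 arrays. miR-103 had 143.7, 154.2 and 128.1 units on TGFβ arrays 1 to 3, against 128.1, 184.1 and 183.6 on control arrays 1 to 3. miR-107 had 71.4, 77.6 and 70.5 units with TGFβ, against 70.4, 100.3 and 107.1 in controls. In both, control 1 was level with the lowest TGFβ array, and controls 2 and 3 were above all 3 TGFβ arrays. The differences were -0.20 for miR-103 (SE 0.20, limma adjusted p = 0.564) and -0.32 for miR-107 (SE 0.20, limma adjusted p = 0.433), and without scaling they turned to 0.14 and 0.03. Without control 1 miR-107 fell by 0.50 (limma adjusted p = 0.0324), and miR-103 did not pass (-0.38, limma adjusted p = 0.0806). Both fell with array weights, which stopped short of convergence, miR-103 by 0.43 (limma adjusted p = 0.0165) and miR-107 by 0.51 (limma adjusted p = 0.00992). They also fell without the first slide column, miR-103 by 0.44 (limma adjusted p = 0.0457) and miR-107 by 0.55 (limma adjusted p = 0.0203).

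The profile of each detected member over the 6 arrays, centred on its own mean, was set against those of the other 69 miRNAs detected on all of them. Likeness was the mean absolute difference on the log2 scale, given as a description, since all points share the same 6 arrays and their scaling. miR-15a was closest to miR-96 (0.0956), miR-345-5p (0.0965) and miR-342-3p (0.111), with a median of 0.241 over all 69. miR-15b was closest to miR-342-3p (0.0777), miR-10a (0.0814) and let-7c (0.106). The profile of miR-16 was most like those of let-7c (0.0656), miR-103 (0.0688) and miR-24 (0.0768), and that of miR-322 most like miR-130b (0.102), miR-361 (0.103) and miR-345-5p (0.108). The members were not each other's nearest profiles. miR-15a and miR-322, from separate clusters, were each other's 5th closest (0.112), while miR-16 was 30th closest to miR-15a (0.225) and 14th closest to miR-15b (0.147), its partners in the 2 transcripts.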

How the data were processed

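Small RNA from MCT cells was measured on 6 one-colour Agilent arrays labelled with Cy3, 3 for TGFβ and 3 for control, grouped by sample title. Per the file headers, the deposited values are the fluorescence intensity of each spot after Agilent Feature Extraction had subtracted the background, with no scaling over arrays. Those headers give version 10.7.3.1 and the submitters' processing notes give 10.1.1. Flags for outlier, saturated and well-above-background spots came from other deposited columns, per the file headers. Saturated spots numbered 0. The deposited series table held the same intensity values (largest difference 0).

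Spots of a probe were averaged without outliers, then the 2 probes of each member. Arrays were scaled so that the 75th percentile of the 105 probes detected on all 6 was equal, keeping the geometric mean, then floored at 1 and put on the log2 scale. Detection of a probe required a share of 0.5 or more of its spots well above background, and detection of a miRNA required 1 such probe. The 84 miRNAs well above background on all 3 arrays of a group were tested with limma 3.58.1 under R 4.3.3 (two-sided, lmFit with eBayes, Benjamini-Hochberg, threshold 0.05). In 50 simulated data sets of 84 miRNAs it called 12.5% of log2 changes of 0.5 and 51.5% of changes of 1. It also called 0.444% of unchanged miRNAs, and calls in either direction counted. Noise was drawn independently for each miRNA with its own spread, without any shift shared by an array, unlike in these data. The rates pool all 84 miRNAs and are not those of the members.

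An alternative fit treated the replicate numbers as pairing samples, with a replicate block. Deviations from the group mean correlated at 0.383, 0.373 and 0.521 over the tested miRNAs for same-numbered samples. TGFβ 3 and control 2 had 0.385. With deviations centred within 3 arrays and controls 2 and 3 close together, these correlations are not independent and cannot show that samples were paired. The labels do not say what a number marks. Controls 2 and 3 lay closer than any other pair, with 24.8% of 105 probes differing by more than 2 standard errors of the spots, against 40.0% to 88.6% in other pairs. Spot noise cannot show whether they were separate cultures, and they were kept as 2 samples as labelled, with their average as an alternative. Alternatives changed scaling, background correction, probe summary, spots, filter, floor, variance model, weights, blocks and the arrays used. Ratios within an array, the fit without the first slide column, the 50th percentile and a percentile retaken without control 1 were added after seeing the data.

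The members and lists were chosen with earlier results of these data known. Named miRNAs are the members, their opposite arms, the X-chromosome cluster, miR-103 and miR-107, markers, the 3 nearest profiles of each detected member and any miRNA on which a call turns. Probe intensities of different miRNAs were not compared as levels. The array headers name build mm9 and the RefSeq tables GRCm38.p6, so no coordinates are given. Python 3.11.15, scipy 1.17.1 and matplotlib 3.10.9 were used.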

Additional observations from a re-analysis of the deposited data

How the results depend on the processing

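The alternatives reuse the same arrays and are not independent checks. Those that changed only the floor, the filter, the variance model or the replicate block left each member's difference as it was, so its direction could not turn. Over 26 alternatives miR-15a was lower in TGFβ-treated cells in 26 and passed in 4, and miR-15b was lower in 25 and passed in 2. miR-16 was lower in 21 and miR-322 in 25, and neither passed in any. limma adjusted p ran from 0.0154 to 0.976 for miR-15a, 0.0264 to 0.976 for miR-15b, 0.0737 to 1 for miR-16 and 0.151 to 0.976 for miR-322. Without scaling the differences of miR-15b (0.0477), miR-16 (0.26) and miR-322 (0.12) turned positive, and that of miR-16 also did with total gene signal (0.0575) and with the slide row as a block (0.0131). Leaving out 1 array at a time gave -0.56 to -0.30 for miR-15a, -0.42 to -0.18 for miR-15b, -0.21 to 0.0109 for miR-16 (0.0109 without control 2 and 0.0029 without TGFβ 3) and -0.33 to -0.13 for miR-322. The number of miRNAs called over these 6 fits was 0 to 29, with 29 only without control 1. With the percentile retaken without control 1, 31 were called and miR-15a was at -0.57 (limma adjusted p = 0.0494). Array weights called 45 (miR-15a -0.48, miR-15b -0.40, with the weights stopped short of convergence), the fit without the first slide column called 33 (miR-15a -0.45, miR-15b -0.54), and the slide row as a block called 3. The replicate block called 1, miR-714 (limma adjusted p = 0.00291), and changed no call of a member. miR-714 was well above background on only 4 arrays. Its control mean was 0.75 ± 1.30 (SD) on the log2 scale, near the floor. Requiring both probes of a member to be well above background left the same 4 detected. The cause of these changes was not tested. With 3 arrays a group, 12.5% of log2 changes of 0.5 were called in simulations without a shift shared by an array. Smaller changes were not simulated. miR-195, miR-497 and miR-503 could not be compared at this signal over background.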
